A study of Oryza sativa with 21 samples.

Results

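The genes described here are those whose leaf transcript level lay on one side of wild type in rice overexpressing NRP1 and on the other side in rice edited at NRP1. A gene was taken when its log2 difference from the wild-type mean was at least 0.2 in size in each of 6 transgenic lines, with one sign in all 3 overexpression lines and the opposite sign in all 3 CRISPR lines. Of 13294 identifiers that start with OS and averaged at least 5 CPM in wild type, 205 met this rule, out of 91080 identifiers in the deposited table. Among these, 57 were lower in the overexpression lines and higher in the CRISPR lines, and 148 were higher in the overexpression lines and lower in the CRISPR lines. CPM is the count scaled to a common library total, not corrected for gene length, and log2 differences were taken between line means after adding 0.5 CPM.

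RNA came from the second leaf from the top of field-grown Oryza sativa at early heading, collected in the morning. The groups were 3 lines overexpressing NRP1 (OE-2, OE-3, OE-4), 3 lines labelled as NRP1 knockouts made with CRISPR/Cas9 (C-13, C-14, C-16) and the wild type (WT). Each line and WT had 3 libraries, 21 in all. Neither the promoter that drives NRP1 nor the sequence changes of the edited lines were known here, and the labels do not say whether the 3 libraries of a line came from separate plants. Every contrast with WT shares the same 3 WT libraries.

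Library totals ranged from 13788243 to 19032786 counts. NRP1 (OS07G0471900) checked the labels: its 9 OE libraries held 288 to 411 CPM (median 351), the 9 CRISPR libraries 1.9 to 3.76 CPM (median 2.86) and the WT libraries 2.58, 1.94 and 3.1 CPM. The OE lines stood far above both other groups, while CRISPR and WT libraries overlapped. An edit need not lower a transcript, so these counts do not check the CRISPR labels. Antenna genes, which mark green leaf tissue, together held 28160 to 48710 CPM in OE, 36130 to 48520 CPM in CRISPR and 30440 to 42360 CPM in WT libraries.

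Heading leaves are the main source of carbon for the filling grain. Their chloroplast proteins hold most of the leaf's nitrogen. Chlorophyll is built from glutamate through 5-aminolevulinic acid, in a path whose first dedicated enzyme is glutamyl-tRNA reductase, and one of its late steps needs light and protochlorophyllide oxidoreductase. Glutamine synthetase fixes ammonium into glutamine, with a plastid form for photorespiratory ammonium and cytosolic forms for primary assimilation and for nitrogen moved between organs. As leaves age, chlorophyll is dismantled and nitrogen is exported.

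The count of genes in each direction depended on how libraries were scaled. By library totals, 27.8% of the 205 genes were in the set lower in OE. With TMM scaling, which sets libraries level on the bulk of genes, the rule took 102 genes lower in OE and 93 higher, so that share was 52.3%. Of the original genes, 50 and 80 were taken under both scalings. The median of all 13294 genes lay, as a log2 difference from WT on the library-total scale, at 0.03, -0.06 and 0.06 for OE-2, OE-3, OE-4 and at -0.10, -0.11 and -0.13 for C-13, C-14, C-16. With TMM it was between -0.01 and 0.01 in all 6 lines. CRISPR values below are therefore to be read against these overall shifts.

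**Figure D1:**
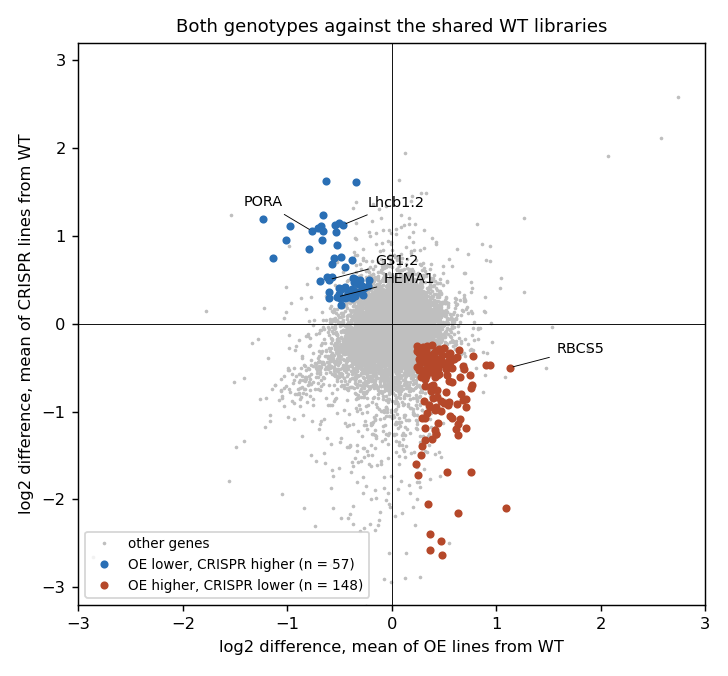
Log2 difference of the mean of the 3 OE lines from WT (horizontal) and of the mean of the 3 CRISPR lines from WT (vertical) for 13294 genes at the WT floor; coloured points are the 57 and 148 genes that met the rule and 7 other genes lie outside the axes. The gap around 0 is set by the rule, and both axes share the same WT libraries.

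In the 57 genes lower in OE, the median log2 difference from WT was -0.47, -0.52 and -0.33 for OE-2, OE-3, OE-4 and 0.47, 0.45 and 0.55 for C-13, C-14, C-16. In the 148 genes higher in OE, it was 0.36, 0.46 and 0.36 for OE-2, OE-3, OE-4 and -0.60, -0.54 and -0.55 for C-13, C-14, C-16. The change in CRISPR lines was the larger one for 34 of the 57 genes and for 104 of the 148. On the scale of CPM + 0.5, levels in OE relative to CRISPR lines ranged from 0.186-fold to 0.659-fold in the first set (median 0.53-fold) and from 1.41-fold to 9.1-fold in the second (median 1.99-fold). These values chose the genes and describe them, and no test was made of them.

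Many of the genes sat close to the threshold. All 6 lines differed from WT by at least 0.5 on the log2 scale for 5 of the 57 and 8 of the 148 genes. The smallest of the 6 absolute differences had a median of 0.26 in the first set and 0.27 in the second. Just inside the threshold, the first set had least differences of 0.2003, 0.201 and 0.2019, and just outside lay genes at 0.1998, 0.1973 and 0.1969. In the second set the corresponding values were 0.2005, 0.2016 and 0.2024 inside and 0.2, 0.1999 and 0.1999 outside. Another 43 and 163 genes fell short with a least difference between 0.15 and 0.2 in the same directions, so membership near the line separates genes that hardly differ.

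The libraries of OE and CRISPR lines were well apart for most of these genes. All 9 OE libraries lay below all 9 CRISPR libraries for 41 of the 57 genes, a pattern shown by 1.6% of all genes at the WT floor. All 9 OE libraries lay above all 9 CRISPR libraries for 127 of the 148, against 8.67% of all genes. The rule used this contrast, so the shares are printed for scale only. Full order across all 21 libraries, with WT libraries in the gap, was met by 3 of the 57 genes (0.0226% of all genes) and by 3 of the 148 (0.0903%).

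Summarised by library, the median log2 difference from the WT mean over the 57 genes was -0.71 to -0.25 in OE libraries (median -0.48) and 0.34 to 0.64 in CRISPR libraries (median 0.53). The WT libraries stood at -0.12, 0.01 and 0.11, apart from both. Over the 148 genes it was 0.18 to 0.53 in OE libraries (median 0.41) and -0.82 to -0.34 in CRISPR libraries (median -0.60). Here WT replicate 1 stood at 0.32, replicate 2 at -0.01 and replicate 3 at -0.43. WT replicate 1 was thus inside the OE range and WT replicate 3 inside the CRISPR range, and only WT replicate 2 and the WT mean lay between the genotypes.

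**Figure D2:**
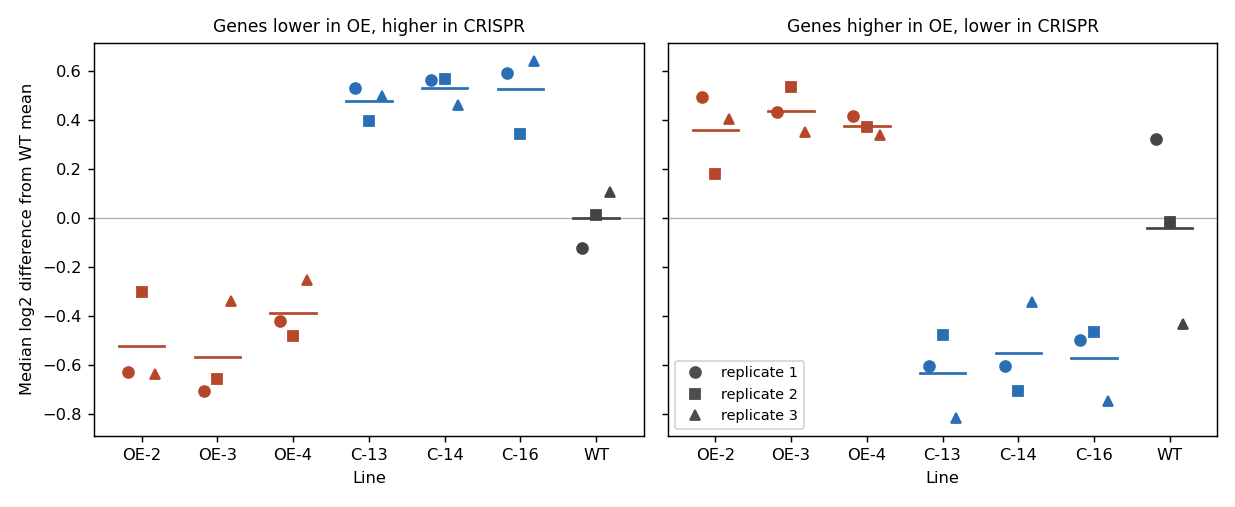
Median over the 57 genes (left) and the 148 genes (right) of the log2 difference from the WT mean, for each of the 21 libraries by line; symbols mark replicate numbers and bars the mean of 3 libraries. OE and CRISPR libraries do not overlap in either panel, while the WT libraries run from -0.43 to 0.32 on the right.

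The sets took up a small part of the transcriptome. The 57 genes together made up 0.365% to 0.471% of counts in OE libraries, 0.837% to 1% in CRISPR libraries and 0.499%, 0.599% and 0.652% in the WT libraries. The 148 genes made up 0.962% to 1.24% in OE, 0.45% to 0.621% in CRISPR and 1.03%, 0.823% and 0.633% in WT libraries. In leaf tissue sequenced in bulk, fewer cells of a type and less RNA per cell cannot be told apart.

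The place of single WT libraries was counted gene by gene. Of the 57 genes, WT replicates 1, 2 and 3 lay between the OE and CRISPR line means for 42, 47 and 38. Of the 148 genes, WT replicate 2 lay between them for 141, but WT replicate 1 for 62 and WT replicate 3 for 91. WT replicate 1 was within or beyond the OE line means for 86 of the 148, and WT replicate 3 was within or beyond the CRISPR line means for 57. Without WT replicate 3 the rule took 90 genes higher in OE, of which 49 were among the 148. Leaving out any other single library gave 126 to 221 genes higher in OE, and leaving out any single library gave 45 to 65 lower in OE. Only 8 of the 57 genes and 13 of the 148 were taken in all 21 of these settings.

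**Figure D3:**
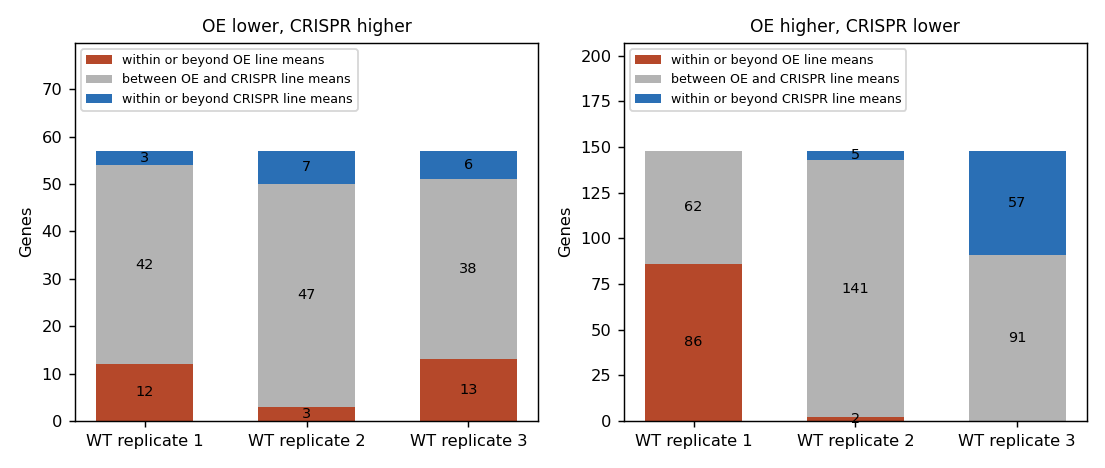
Number of genes for which each WT library lay between the OE and CRISPR line means, or within or beyond the line means of 1 genotype, in the 57 genes lower in OE (left) and the 148 higher in OE (right). WT replicate 2 was between for 141 of 148 genes, WT replicate 1 for 62 and WT replicate 3 for 91.

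In WT the genes varied more between replicate libraries than others did. The coefficient of variation over the 3 WT libraries had a median of 23.8% in the 57 genes, 28.4% in the 148 genes and 12.4% over all genes at the WT floor. In the 3 OE lines its median ran from 16.1% to 20.1% in the 57 genes and from 11.4% to 15.5% in the 148 genes, against 7.48% to 13.2% over all genes, and in OE-3 the 148 genes, at 13%, were level with all genes at 13.2%. In the 3 CRISPR lines it ran from 14.2% to 20.9% and from 18.6% to 21.8%, against 9.03% to 11.2%. Median WT level was lower than over all genes, with 14.2 CPM and 17.4 CPM against 23.6 CPM, and 9 of the 57 and 18 of the 148 genes exceeded 100 CPM in WT.

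Deviations from line means, which the rule did not use, ran together within each set. The mean pairwise Pearson correlation of these deviations over 21 libraries was 0.13 among the 57 genes, 0.39 among the 148 genes and -0.18 between the sets, against 0.05 among all genes at the WT floor. Without the 3 WT libraries it was 0.14, 0.30, -0.17 and 0.05, and without OE-3 replicate 1 it was 0.13, 0.40, -0.19 and 0.03. These are correlations across libraries that share depth and composition within a library, and they carry no test. Each set was chosen for moving in 1 direction and varied more in WT, so all genes are not a matched baseline. The correlation among the 148 genes was the highest of these values in all 3 choices of libraries.

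Gene symbols below were paired with identifiers from general knowledge. The RefSeq gene table (assembly ASM3414082v1) paired 1 of the 91080 identifiers and none of the 205 genes, so each symbol stands for the identifier beside it. Of 114 genes in 15 lists of leaf functions, 102 were at the WT floor and 5 were among the 205: GS1;2, HEMA1, PORA and Lhcb1.2 in the set lower in OE, and the identifier listed as RBCS5 in the other.

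Of nitrogen assimilation, GS1;2 (OS03G0223400), a cytosolic glutamine synthetase, was lower in OE and higher in CRISPR lines. The OE libraries held 76.8 to 136 CPM (median 90), the CRISPR libraries 172 to 257 CPM (median 215) and the WT libraries 138, 161 and 151 CPM. The 3 genotypes did not overlap in any library. By line, OE-2 averaged 83.4 ± 6.58 CPM, OE-3 94.6 ± 21 CPM and OE-4 118 ± 16 CPM (SD over 3 libraries, as for the next values). C-13 averaged 229.8 ± 9.68 CPM, C-14 188.5 ± 14.9 CPM and C-16 219.6 ± 35.5 CPM, and WT 150.2 ± 11.5 CPM. The OE level was 0.656-fold that of WT and the CRISPR level 1.42-fold, with edgeR log2 fold changes of -0.63 (SE 0.11) and 0.61 (SE 0.12). In the libraries of replicate 1, 2 and 3 taken alone, the log2 difference of OE from CRISPR lines was -1.23 (SE 0.20), -1.25 (SE 0.12) and -1.22 (SE 0.17). It was chosen from each selection of 2 replicate numbers and called in the third each time by edgeR. For this and the next 4 genes all libraries took part in naming the gene. Their values, edgeR calls and adjusted p-values are therefore a description and give no support to the choice. Leaving out any single library kept it in the set.

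The other cytosolic form of the list, GS1;1 (OS02G0735200), ran the other way and missed the rule narrowly, with a log2 difference of 0.1969 in OE-2. Its level was 1368 ± 82.6 CPM in OE lines and 738 ± 13.9 CPM in CRISPR lines (SD, n = 3 line means each), against 1111 CPM in WT. OE lines were 1.75-fold above CRISPR lines (log2 0.81, SE 0.10, edgeR adjusted p = 0.00243 on counts summed per line). ASN1 (OS03G0291500), an asparagine synthetase, was on the same side, at 5.2 ± 0.521 CPM in OE and 1.13 ± 0.1345 CPM in CRISPR lines (SD, n = 3 line means each), with 4.05 CPM in WT, below the WT floor. Its OE lines were 4.44-fold above CRISPR lines (log2 2.15, SE 0.18, edgeR adjusted p = 0.000689). Both genes were chosen for mention after their values were seen.

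Chlorophyll synthesis supplied a pair of the genes lower in OE, at its entry and at its light-dependent step. HEMA1 (OS10G0502400), for glutamyl-tRNA reductase, held 9.27 to 23.6 CPM in OE libraries (median 18.95), 22.7 to 43.8 CPM in CRISPR libraries (median 31.4) and 24.9, 27.3 and 26.1 CPM in WT libraries. All OE libraries were below all WT libraries, whereas the lowest CRISPR library, C-14 replicate 2, lay below WT and inside the OE range. Line means were 18.4 ± 1.05, 13.4 ± 4.98 and 22.1 ± 1.5 CPM for OE-2, OE-3, OE-4, against 26.1 ± 1.21 CPM in WT (SD, n = 3 libraries each). Log2 differences in CRISPR lines were only 0.21, 0.23 and 0.45, near the threshold, and 15 of 21 leave-one-out settings kept the gene in the set. In the libraries of replicates 1, 2 and 3 alone, OE differed from CRISPR lines by -1.29 (SE 0.24), -0.52 (SE 0.15) and -1.10 (SE 0.18) on the log2 scale, which edgeR did not call in replicate 2 (adjusted p = 0.114). The rule chose it only in the selection without replicate 2.

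PORA (OS04G0678700), for a protochlorophyllide oxidoreductase, held 2.61 to 10.9 CPM in OE libraries (median 6.12), 8.94 to 42 CPM in CRISPR libraries (median 23.3) and 9.92, 20.5 and 6.12 CPM in WT libraries. The lowest CRISPR library, C-13 replicate 2, lay inside the OE range, and the WT libraries spread across both ranges, with WT replicate 3 at the OE median. Line means were 4.88 to 8.85 CPM in OE, and 16.4 ± 6.46, 33.8 ± 9.57 and 27.2 ± 9.78 CPM for C-13, C-14, C-16, against 12.2 ± 7.45 CPM in WT (SD, n = 3 libraries each). OE lines held 0.574-fold and CRISPR lines 2.12-fold the WT mean. The gene stayed in the set in 18 of 21 leave-one-out settings, but it was chosen in 0 of the 3 selections from 2 replicate numbers. In replicates 1, 2 and 3 alone the log2 difference of OE from CRISPR lines was -1.90 (SE 0.56), -2.10 (SE 0.52) and -1.94 (SE 0.27), and edgeR did not call it in replicates 1 and 2 (adjusted p = 0.0993 and 0.0841).

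Lhcb1.2 (OS01G0720500), listed as a chlorophyll-binding protein of the photosystem II antenna, held 16.3 to 32.7 CPM in OE libraries (median 18.6), 29.4 to 172.5 CPM in CRISPR libraries (median 57.3) and 40.6, 31.7 and 17.2 CPM in WT libraries. Its highest value stood alone at C-14 replicate 3, and WT replicate 3 was among the OE libraries. The highest OE library, OE-3 replicate 2, was above the lowest CRISPR library. OE-3 only just met the rule, with a log2 difference of -0.20, and with TMM scaling that line stood at -0.14 and the gene was not taken. In replicates 1, 2 and 3 alone, the log2 difference of OE from CRISPR lines was -1.69 (SE 0.28), -1.03 (SE 0.32) and -2.24 (SE 0.51), not called by edgeR in replicate 2 (adjusted p = 0.133). The selection without replicate 1 did not choose it. Lhcb1 genes have near-identical copies, and since the authors' handling of reads shared between them is not known here, this level is uncertain.

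The identifier listed as RBCS5 (OS12G0291400), a rubisco small subunit, was the only list gene among the 148. It held 23.4 to 53.3 CPM in OE libraries (median 36), 6.68 to 20.2 CPM in CRISPR libraries (median 12.1) and 16.9, 16 and 17.8 CPM in WT libraries. OE libraries were above all others, but C-13 replicate 2, at 20.2 CPM, lay above WT. Its level is far below that of a main rubisco subunit, which puts the symbol in doubt, and it too has close copies. With TMM scaling the C-13 difference was -0.19 and the identifier was not taken. In replicates 1, 2 and 3 alone, OE differed from CRISPR lines by 2.32 (SE 0.21), 1.12 (SE 0.26) and 1.38 (SE 0.25) on the log2 scale, not called by edgeR in replicate 2 (adjusted p = 0.067). The selection without replicate 1 did not choose it.

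**Figure D4:**
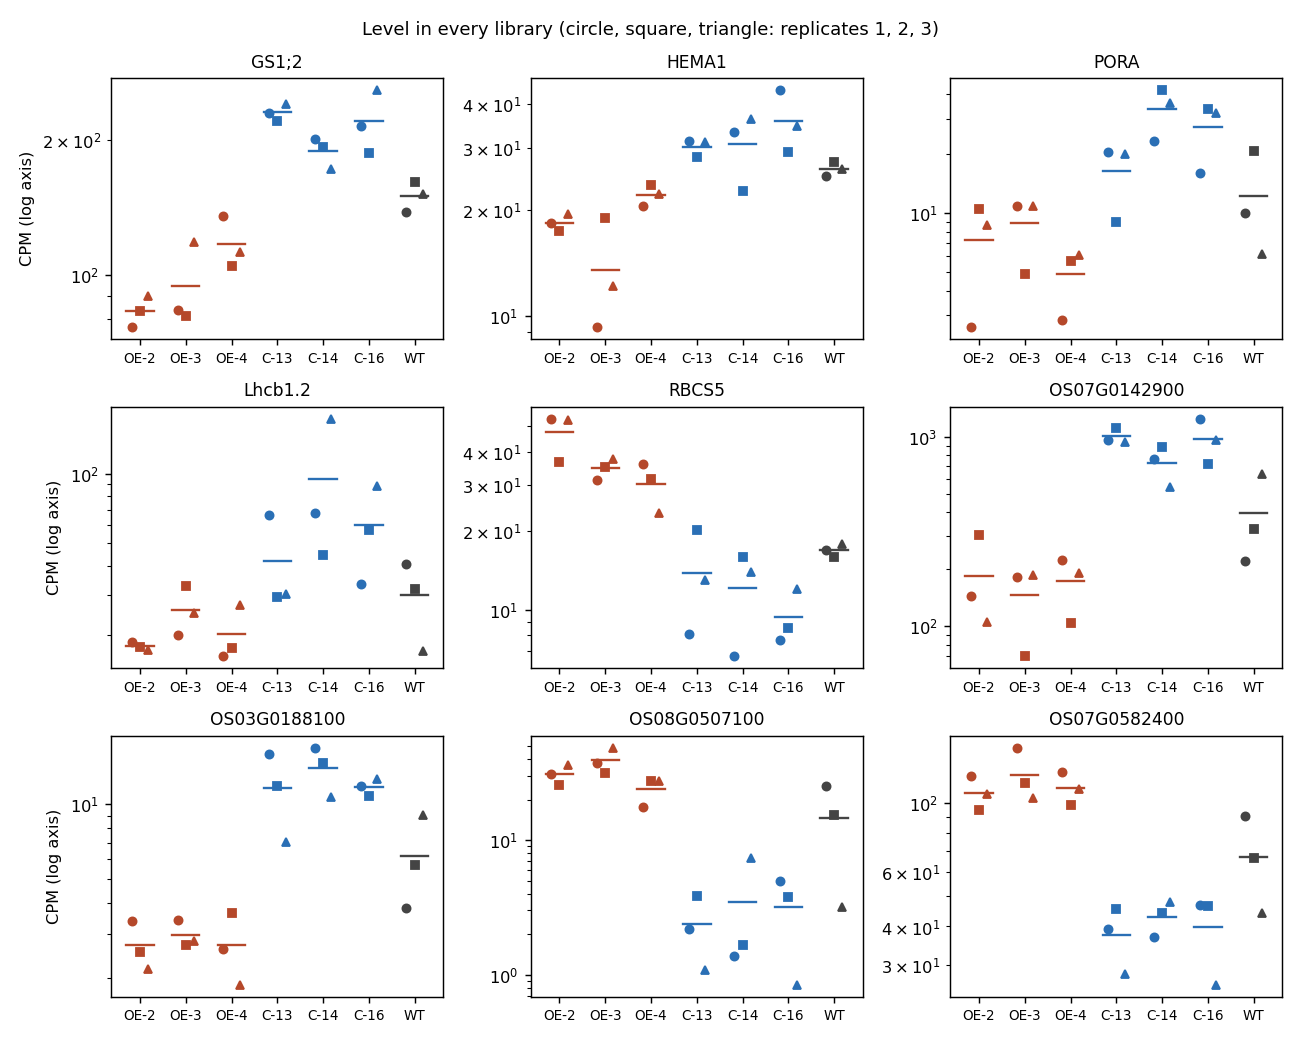
Level of 9 genes of the 205 in every library (CPM, log axis), by line; circles, squares and triangles are replicates 1, 2 and 3 and bars are line means. The panels are the 5 list genes and the 2 unnamed identifiers of each set with the largest least difference; GS1;2 is the only one of the 9 with all 3 genotypes apart in every library.

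Apart from list genes, the identifiers with the largest least difference were OS07G0142900 and OS03G0188100 among those lower in OE. OS07G0142900 held 69.6 to 302.5 CPM in OE libraries (median 182), 547.5 to 1243 CPM in CRISPR libraries (median 936) and 222, 327 and 639 CPM in WT libraries. OE and CRISPR libraries did not overlap, but WT replicate 1 fell inside the OE range and WT replicate 3 inside the CRISPR range. OS03G0188100 held 1.88 to 3.66 CPM in OE (median 2.72), 7.06 to 16.8 CPM in CRISPR (median 11.9) and 3.84, 5.71 and 9.01 CPM in WT libraries. Its WT replicate 3 likewise lay inside the CRISPR range.

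Among those higher in OE they were OS08G0507100 and OS07G0582400. OS08G0507100 held 17.6 to 48.2 CPM in OE libraries (median 31.1), 0.839 to 7.36 CPM in CRISPR libraries (median 2.2) and 25, 15.2 and 3.17 CPM in WT libraries, with WT replicate 1 inside the OE range and WT replicate 3 inside the CRISPR range. OS07G0582400 held 94.6 to 149.8 CPM in OE (median 111), 25.9 to 47.9 CPM in CRISPR (median 44.3) and 90.4, 66.5 and 44.3 CPM in WT libraries. In both, WT replicate 1 was the highest of the WT libraries and WT replicate 3 the lowest. The files and the gene table give no description of these 4 identifiers, and 3 of them, all but OS03G0188100, were taken in all 21 leave-one-out settings.

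To test the pattern in libraries that did not choose the genes, the rule was applied to the libraries of 2 replicate numbers and the OE and CRISPR lines were then compared in the libraries of the remaining number, with each line as 1 replicate. Chosen without replicate 1, 44 genes were lower in OE and 179 higher, and 30 and 111 of them were called in the replicate 1 libraries in the same direction (edgeR quasi-likelihood test, adjusted p under 0.05). Over all genes tested there, 1.49% were called lower and 2.54% higher, and over genes at the WT floor 1.85% and 2.8%. Chosen without replicate 2, 24 of 54 and 38 of 129 were called, against 0.794% and 0.915% of all genes tested and 0.976% and 1.23% of those at the WT floor. Chosen without replicate 3, 37 of 45 and 45 of 64 were called, against 6.69% and 4.78% of all genes tested and 8.75% and 6.23% of those at the WT floor. Of the genes chosen without replicate 1, 30 of 44 lower in OE and 65 of 179 higher were also taken with all libraries. Without replicate 2 these were 28 of 54 and 72 of 129. Without replicate 3 they were 26 of 45 and 35 of 64. The counts of calls therefore include many genes outside the sets described above. For the genes chosen each time, the gap between OE and CRISPR lines thus recurred in other libraries of the same lines. Genes at large were not chosen for such a gap, so their shares are given for scale only. The contrast leaves WT out, so it does not test opposite movement around WT.

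Almost every gene chosen this way kept its direction. The sign of the OE-minus-CRISPR difference was the same in the libraries left aside for 44 of 44, 54 of 54 and 44 of 45 genes lower in OE. For genes higher in OE it was the same for 178 of 179, 128 of 129 and 64 of 64. The median log2 difference was -1.32, -0.85 and -1.14 for the genes lower in OE and 1.16, 0.86 and 0.86 for those higher, with all genes tested at 0.01, -0.01 and -0.02. The number of calls among the genes chosen each time, both directions together, was 141, 62 and 82 in replicates 1, 2 and 3. In replicate 1 it was 78 without OE-2, 55 without C-13, 64 without C-14 and 63 without C-16. In replicate 2 it was 11 without OE-3, 13 without OE-4, 31 without C-13, 20 without C-14 and 36 without C-16. In replicate 3 it was 50 without OE-2, 44 without C-13 and 43 without C-16. Calls over all genes were not counted in these settings, so these numbers do not show a change particular to the chosen genes.

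**Figure D5:**
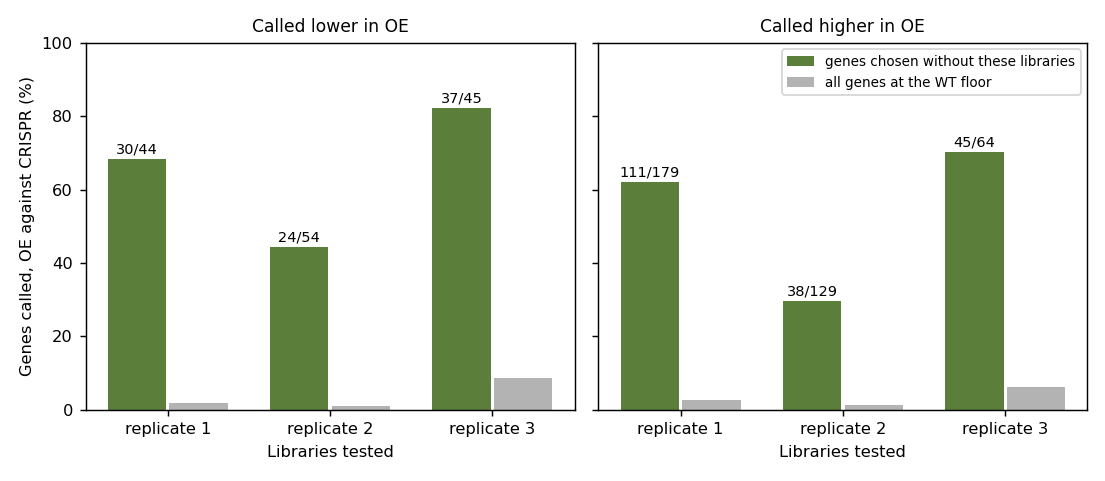
Percentage of genes called lower (left) or higher (right) in OE than in CRISPR lines in the libraries of 1 replicate number (edgeR, adjusted p under 0.05); green bars are genes chosen from the other libraries, with called over tested genes printed above, and grey bars are all genes at the WT floor. Chosen genes were called in 29.5% to 82.2% of cases and all genes in 0.976% to 8.75%.

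The position of WT was counted in the same libraries. In the replicate 1 libraries, WT lay between all 3 OE and all 3 CRISPR libraries for 19 of 44 genes lower in OE (43.2%) and for 29 of 179 higher in OE (16.2%), where 2.49% and 6.13% of all genes at the WT floor showed these orders. In replicate 2 it did so for 24 of 54 (44.4%) and 66 of 129 (51.2%), against 1.94% and 7.92%. In replicate 3 it did so for 18 of 45 (40%) and 29 of 64 (45.3%), against 1.65% and 8.54%. WT can lie between only where OE and CRISPR libraries are apart, and the chosen genes, unlike genes at large, were taken for such a gap. The shares over all genes are therefore for scale and do not measure the place of WT. In these libraries WT is 1 library, so no test of its place was made.

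Lines of a genotype were compared next. Among the 3 OE lines, 1 of the 57 genes and 2 of the 148 differed (edgeR F test over all 7 lines, adjusted p under 0.05), where 9.82% of the 21044 tested genes and 12% of those at the WT floor did. DESeq2 called 10 of the 205, and edgeR without a filter on low counts 7. The share over all genes was not counted by DESeq2 or without the filter. Among the 3 CRISPR lines edgeR called 0 of the 205, where 0.442% of all tested genes and 0.233% of those at the WT floor were called. With shares so small, 0 of the 205 does not set these genes apart. Under an unadjusted edgeR p of 0.05 were 2 of the 57 and 4 of the 148, against 6.63% of all tested genes. DESeq2 called 1 of the 205. The rule asks the lines of a genotype to move alike and so favours genes with small line differences. The OE count was 8 without WT replicate 3, 6 without OE-2 replicate 2 and 7 without OE-3 replicate 2. In these settings 2575, 1877 and 3116 of all tested genes were called, against 2066 with all libraries. It was 1 without OE-3 replicate 1, OE-4 replicate 2 or OE-4 replicate 3, where 979, 803 and 1095 of all tested genes were called. The CRISPR count was 1 without WT replicate 1, where 99 of all tested genes were called, against 93 with all libraries.

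The line farthest from WT was also counted. OE-2 was farthest from WT for 28 of the 57 genes, OE-3 for 23 and OE-4 for 6, while OE-2 averaged 301 ± 17.6 CPM of NRP1, OE-3 358.5 ± 18.6 CPM and OE-4 372 ± 33.7 CPM (SD, n = 3 libraries per line). Of the 148 genes OE-3 was farthest for 81, OE-4 for 35 and OE-2 for 32. Among CRISPR lines, C-16 led for 21 of the 57 and C-13 for 80 of the 148. NRP1 itself was not called different among the OE lines (edgeR adjusted p = 0.122), and the line with its highest level was OE-4 by library totals and OE-3 with TMM scaling.

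The other genes of the leaf lists show what surrounded the few list genes in these sets. On counts summed per line, 1725 of 22553 genes (7.65%) were lower in OE than in CRISPR lines and 2191 (9.71%) higher by edgeR. Of the 108 tested list genes outside the sets, 23 were lower and 15 higher, with a median log2 difference of -0.24 against 0.01 over all genes. The count of 23 was 38 without OE-3 replicate 1 and 14 without OE-3 replicate 2. For these lists, calls of lower or higher in OE and the folds with them are against CRISPR lines, not against WT. All lists and members were chosen with earlier results of these data known, so the counts describe them only.

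Chlorophyll synthesis genes outside the sets were lower in OE for 5 of 12 and higher for 1. PORB (OS10G0496900), the other protochlorophyllide oxidoreductase of the list, was at 242 ± 27.6 CPM in OE lines and 395 ± 34.5 CPM in CRISPR lines (SD, n = 3 line means each), against 255 CPM in WT. Its log2 differences from WT were 0.07, -0.06 and -0.26 for OE-2, OE-3, OE-4. CHLH (OS03G0323200), a magnesium chelatase subunit, was at 1792 ± 183 CPM in OE and 2343 ± 145.5 CPM in CRISPR lines (SD, n = 3 line means each), with 1935 CPM in WT. CHLG (OS05G0349700), the chlorophyll synthase that ends the path, was the exception, at 172.5 ± 12.9 CPM in OE and 102 ± 17.9 CPM in CRISPR lines (SD, n = 3 line means each), against 127 CPM in WT. It was higher in all 3 OE lines by at least 0.33 on the log2 scale but stood at -0.12 in C-16, which kept it out of the set. These 3 genes were chosen after their values were seen.

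Antenna genes outside the sets were lower in OE for 3 of 12, photosystem subunits for 2 of 14 with 1 higher, electron carriers for 0 of 6 by edgeR (3 at an unadjusted p under 0.05 and 1 by DESeq2) and Calvin-Benson genes for 4 of 14. DESeq2 called 7, 6 and 7 lower in antenna, photosystem and Calvin-Benson genes. These counts hung on single libraries. Without OE-3 replicate 1, 9 antenna genes, 6 photosystem genes and 2 electron carriers were lower. Photosystem genes lower in OE numbered 0 without OE-3 replicate 2 or C-13 replicate 1, and 1 without OE-2 replicate 1 or 3, OE-3 replicate 3, OE-4 replicate 3, C-13 replicate 3, C-14 replicate 1 or 3, or C-16 replicate 3. The 1 higher was lost without C-14 replicate 1 or 3 or C-16 replicate 1. Calvin-Benson genes numbered 1 without OE-3 replicate 2 or C-14 replicate 3, and 2 without OE-3 replicate 3. In the 4 lists, in this order, median log2 differences of OE from CRISPR lines were -0.40, -0.30, -0.26 and -0.30. Lhcb4 (OS07G0558400), a minor antenna protein named after its values were seen, had log2 differences from WT of -0.12, 0.20 and -0.27 for OE-2, OE-3, OE-4 and 0.51, 0.76 and 0.66 for C-13, C-14, C-16. Here the CRISPR lines alone departed from WT in 1 direction. Light signalling genes were lower in OE for 3 of 4, and for 1 without OE-2 replicate 1. The 1 kept was CGA1 (OS02G0220400), a GATA factor that promotes chloroplast development, named after its values were seen. OE lines held 0.705-fold its level in CRISPR lines (edgeR adjusted p = 0.0174). CGA1 averaged 36.65 CPM in OE and 49.04 CPM in CRISPR lines, against 37.04 CPM in WT, so OE lines were close to WT.

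Chlorophyll breakdown and senescence genes were higher in OE for 4 of 7, and for 2 without OE-2 replicate 1, OE-3 replicate 2, C-13 replicate 3, C-14 replicate 3 or C-16 replicate 3. NAP (OS03G0327800), a senescence regulator named after its values were seen, was at 1.58-fold (edgeR adjusted p = 0.00244). NAP differed from WT by -0.03, -0.09 and 0.16 for OE-2, OE-3, OE-4 and by -0.74, -0.61 and -0.80 for C-13, C-14, C-16, so OE lines were close to WT. Of the defence list 4 of 9 were higher than in CRISPR lines and 1 lower. The lower one was lost in 11 of 18 settings that left out a library. The 4 higher ones, all named here, were near or below WT in OE lines. PAL averaged 100.4 CPM in OE lines, 13.77 CPM in CRISPR lines and 106.1 CPM in WT. In the same order, LOX8 averaged 18.55, 6.066 and 27.62 CPM, NH1 28.07, 16.13 and 29.71 CPM, and PR10b 54.37, 16.83 and 51.92 CPM. Of nitrogen assimilation 3 of 7 were higher, with 1 lower without OE-4 replicate 1. Flowering genes were lower for 2 of 6, among them Hd3a (OS06G0157700), a florigen gene, at 0.618-fold (edgeR adjusted p = 0.0107), which was named after its values were seen. In sucrose and starch 1 of 4 and in the clock 1 of 8 were lower, with 2 in the clock without OE-3 replicate 1 or OE-4 replicate 1, and by DESeq2 2 and 3. Heat stress had 1 of 2 higher, and 0 without OE-2 replicate 1, OE-3 replicate 2 or OE-4 replicate 2. Phosphate had 0 of 1 by edgeR (1 at an unadjusted p under 0.05 and 0 by DESeq2), and the secondary wall list 1 lower and 1 higher of 2. Some called genes, named here for their low level, lay below the WT floor, besides ASN1. HSFA2a of heat stress averaged 2.23 CPM in OE and 0.364 CPM in CRISPR lines, and FKF1 of the clock 0.283 and 0.985 CPM. SalT, the lower defence gene, averaged 0.0771 and 1.26 CPM, CESA4 of the wall list 0.322 and 0.979 CPM, and NADH-GOGAT1 of nitrogen assimilation 2.58 and 1.42 CPM.

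Summed levels of some lists differed between genotypes and among WT libraries as well. Chlorophyll breakdown and senescence genes summed to 530.1 to 709.5 CPM in OE, 504.2 to 616.2 CPM in CRISPR and 587.6 to 751.5 CPM in WT libraries. The secondary wall pair, CAD2 and CESA4, summed to 44.6 to 99.8 CPM in OE, 8.11 to 31.6 CPM in CRISPR and 27.8 to 97.4 CPM in WT libraries. Nearly all of this sum was CAD2, at 74.7 CPM in OE and 15.5 CPM in CRISPR lines. CESA4, below the WT floor, ran the other way and was higher in CRISPR lines. Defence genes summed to 229 to 649 CPM in OE, 125 to 334 CPM in CRISPR and 335 to 800.2 CPM in WT libraries. Their part in the results for the 205 genes was not tested.

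Rice identifiers of this kind carry the chromosome number and follow the order along it. The 205 genes lay on all 12 chromosomes, with shares near those of all genes at the WT floor. Chromosome 3 held 15.1% of the 205 and 14.1% of all, chromosome 1 held 12.2% and 14%, and chromosome 8 held 3.41% and 6.7%, with none of the 57 on chromosome 8. Chromosome 7, which carries NRP1, held 8.78% of the 205 and 7.63% of all. Of the 205 genes, 16 (7.8%) stood next to another of them in identifier order, where 3.04% of all genes at the WT floor had such a neighbour. These formed 8 pairs, 5 of them within one set, and one pair holds Lhcb1.2 and the identifier just before it. Without the strand used in counting, reads of overlapping neighbours cannot be told apart.

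With the same size in all 6 lines but 1 sign throughout, 131 genes moved alike, 42 higher and 89 lower than WT. At the WT floor 324 genes were lower and 757 higher in all 3 OE lines, and 906 were higher and 2964 lower in all 3 CRISPR lines. These contrasts share the WT libraries, and the counts are given for scale.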

How the data were processed

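Leaf RNA of 7 rice lines was sequenced in 21 libraries. The authors deposited raw read counts per gene identifier. The submitters' processing notes name STAR 2.5.3a, Trim Galore, FastQC and DESeq2, and IRGSP-1.0 as build, without saying what each did. How reads were counted, with or without strand, and how multi-mapped reads were handled is not given in the sources used here.

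Lines were grouped by the sample titles. The rule used counts over library totals. Tests used edgeR 4.0.16 in R 4.3.3 (quasi-likelihood, TMM, filterByExpr, Benjamini-Hochberg over all genes tested, threshold 0.05): 21044 genes and 14 residual degrees of freedom for all lines, and 4 for the libraries of 1 replicate number. OE and CRISPR lines were compared on counts summed per line. SE is the absolute log2 fold change over the square root of F. DESeq2 1.42.0, other scalings, filters, thresholds and left-out libraries were alternatives. The p-values measure the spread between these samples, which may be technical. Chi-square per gene between the 21 pairs of libraries of 1 line was 6.01 to 31, so no library was counted as a repeat.

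On simulated data, edgeR called 73%, 80% and 78% of genes changed by 1 (log2) in the replicate 1, 2 and 3 libraries. It called 2%, 7% and 4% of those changed by 0.5, over 20794, 20771 and 20693 genes tested. Of all calls, 7.41%, 5.43% and 5.75% were false. The simulated lines of a genotype shared 1 mean, so spread between lines, which enters the real test, was left out. Recovery in the real libraries can therefore be lower.

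Named genes were NRP1, all list genes among the 205 and the 2 unnamed identifiers of each set with the largest least difference; others are marked in the text. Members, lists and tests were chosen with earlier results of these data known. Symbols come from general knowledge.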

Additional observations from a re-analysis of the deposited data

How the results depend on the processing

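The number of genes taken by the rule followed the threshold: at 0.1 it was 184 lower and 589 higher in OE, at 0.3 it was 21 and 52, and at 0.5 it was 5 and 8. TMM scaling gave 102 and 93. Dropping a line loosens the rule: without line OE-2 and without line OE-3 it took 245 and 237 genes higher in OE, and without line OE-4 it took 94 lower and 225 higher. Leaving out single libraries gave 45 to 65 genes lower and 90 to 221 higher in OE. The WT floor, the pseudocount and leaving out a CRISPR line kept both counts within 1.5 times. The log2 difference between OE and CRISPR line means kept its sign for all 9 named genes of the sets in every setting run. The rule used this contrast, so the kept signs describe these genes and give no support to their choice.

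Calls in the libraries outside the choice were counted over the genes chosen each time, both directions together. With single libraries left out they ranged from 55 to 174 in replicate 1. They ranged from 11 to 87 in replicate 2 and from 43 to 89 in replicate 3. In replicate 2 they were 122 with no filter and 119 with the DESeq2 Wald test. With a threshold of 0.3 in the selection they were 32 in replicate 2 and 33 in replicate 3, from fewer chosen genes. The cause of the other changes was not tested. Calls over all genes were not counted in any of these settings.

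Differences among OE lines were called for 7 genes of the 205 with no filter and 10 by the DESeq2 likelihood ratio test. With single libraries left out they were called for 1 to 8, while the count over all tested genes ran from 803 to 3116. Among CRISPR lines the number was 1 with no filter, 1 by DESeq2 and 0 to 1 with single libraries left out. Over all tested genes the last count ran from 62 to 101. List genes outside the sets that were lower in OE numbered 59 in a model of single libraries, 39 by the DESeq2 Wald test and 14 to 38 with single libraries left out. Those higher numbered 12 to 15 with single libraries left out. The model of single libraries treats the 3 libraries of a line as replicates. It called 8910 of the 21044 tested genes, both directions together, so its 59 is to be read against that count. Shares over all genes were not counted for the other settings.

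The replicate numbers did not pair the samples: of 63 pairs of same-numbered libraries of different lines, 12 had deviations from their line means correlated above 0.1, with a mean of 0.01. With the replicate number as a block in the model of single libraries, 58 list genes were lower in OE. That model called 8870 of all tested genes, both directions together. The block kept the other counts within 1.5 times.

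At these depths, changes of 0.5 on the log2 scale were rarely recovered in simulated libraries of 1 replicate number. Genes not called in the real libraries of 1 replicate number are thus not shown to be unchanged.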

Other observations

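The rule covers identifiers that start with OS. Of 53250 other identifiers in the table, 39 reached the WT floor and 0 met the opposite pattern in either direction by the same thresholds, which is a count without a test.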
